A study of Mus musculus with 24 samples.

Results

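Solute carriers are membrane proteins that move sugars, ions, metals, vitamins, nucleotides and metabolic intermediates into and out of cells and organelles. The genes described here were those whose single symbol in the platform annotation has the form of a solute carrier. The families that carry mainly amino acids (Slc1, Slc3, Slc6, Slc7, Slc38 and Slc43) and the iron carriers Slc40a1 and Slc11a2 were left out. This gave 287 of the 18193 genes on the array. A gene stands for its probe set with the highest mean, and 136 of the 287 were measured, that is, had a log2 value of at least 5 on at least 6 of the 24 arrays, against 9825 of all 18193 genes.

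The study followed MMH-D3, an immortalized mouse hepatocyte line, through 2 days of culture. All samples shared one preparation: confluent cells were kept in medium with 2% DMSO for 14 days and then given a serum shock, a brief high-serum treatment used to set cultured cells to one circadian phase. RNA was taken every 2 h between 12 and 58 h after the shock, with 1 array per time point. No time point was repeated, no unshocked culture was analysed here, and the labels do not say whether the 24 samples came from separate cultures.

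Comparisons were made between windows of 4 consecutive arrays. The window of 36 to 42 h was compared with that of 12 to 18 h, the window of 44 to 50 h with that of 36 to 42 h, and the window of 52 to 58 h with that of 28 to 34 h. The first and the second comparison share the arrays of 36 to 42 h. The hours of the cycle also differ between 44 to 50 h and 36 to 42 h, whereas the other comparisons set windows 24 h apart against each other. A gene is called when its adjusted p in limma was under 0.05. Counts of called genes by class or partner list are to be read beside the shares of all measured genes given for each comparison. Levels and changes are on the deposited log2 scale throughout. Brightness also depends on the probes, so levels of different genes are given as descriptions and are not ranked.

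Markers were read first, because carriers differ between liver cell types. Of the 9 hepatocyte markers on the array, 8 were measured (albumin, Alb, averaged 15.97), while Cps1, a urea cycle enzyme of mature hepatocytes, lay at the lowest value of the table. All 4 markers of bile duct and progenitor cells were measured too, with Krt19 at 15.44. None of the 6 fibroblast or 5 endothelial markers was measured. The macrophage list had 3 measured genes of 6 (Csf1r, Cd68 and Cd14), with Clec4f, Adgre1 and Ptprc at or near the lowest value. The array at 46 h had the largest share of values at the lowest value (42.1%) and the highest median of the kept probe sets (9.14). The array at 40 h had the smallest share (39.3%) and the lowest median (8.96), so both extremes fall inside the windows compared around 42 h.

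Several well-known carriers were not measured, some of them marks of the mature liver. Others were measured, among them the hepatocyte glucose carrier Slc2a2 (7.24 to 8.26) and the glucose-6-phosphate carrier Slc37a4 (7.46 to 7.97). The bile acid importer Slc10a1 (NTCP) did not exceed 2.20 on any array, and the organic anion carrier Slc22a7 likewise peaked at 2.20. The fatty acid and bile acid activating enzymes Slc27a2 and Slc27a5 did not exceed 2.32 and 2.17, and the citrate importer Slc13a5 did not exceed 2.18. The manganese exporter Slc30a10 and the glucose carrier Slc5a1 lay at the lowest value on all 24 arrays. Slc2a3, the neuronal glucose carrier, reached 2.18, Slc5a6, the biotin and pantothenate carrier, 2.66, and Slc39a8, a zinc and manganese importer, 4.35. Values this low give only an upper bound. Of the 151 genes that were not measured, 144 had no array at 5 or above and 132 averaged below 3.

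Of the 136 measured genes, 130 were at 5 or above on all 24 arrays. The other 6 were Slc44a4 with 8 such arrays, Slc4a11 with 9, Slc9a9 with 10, Slc22a21 with 18, Slc27a1 with 20 and Slc17a9 with 21. Just outside the filter lay Slc18a2 and Slc25a53 with 5 arrays each and Slc66a1 with 4. The measured genes had a median level of 9.21, beside 9.38 over all measured genes. Their median range over the 24 arrays was 0.73, beside 0.75 over all measured genes, and 5 of them spanned at least 2 log2 units.

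**Figure D1:**
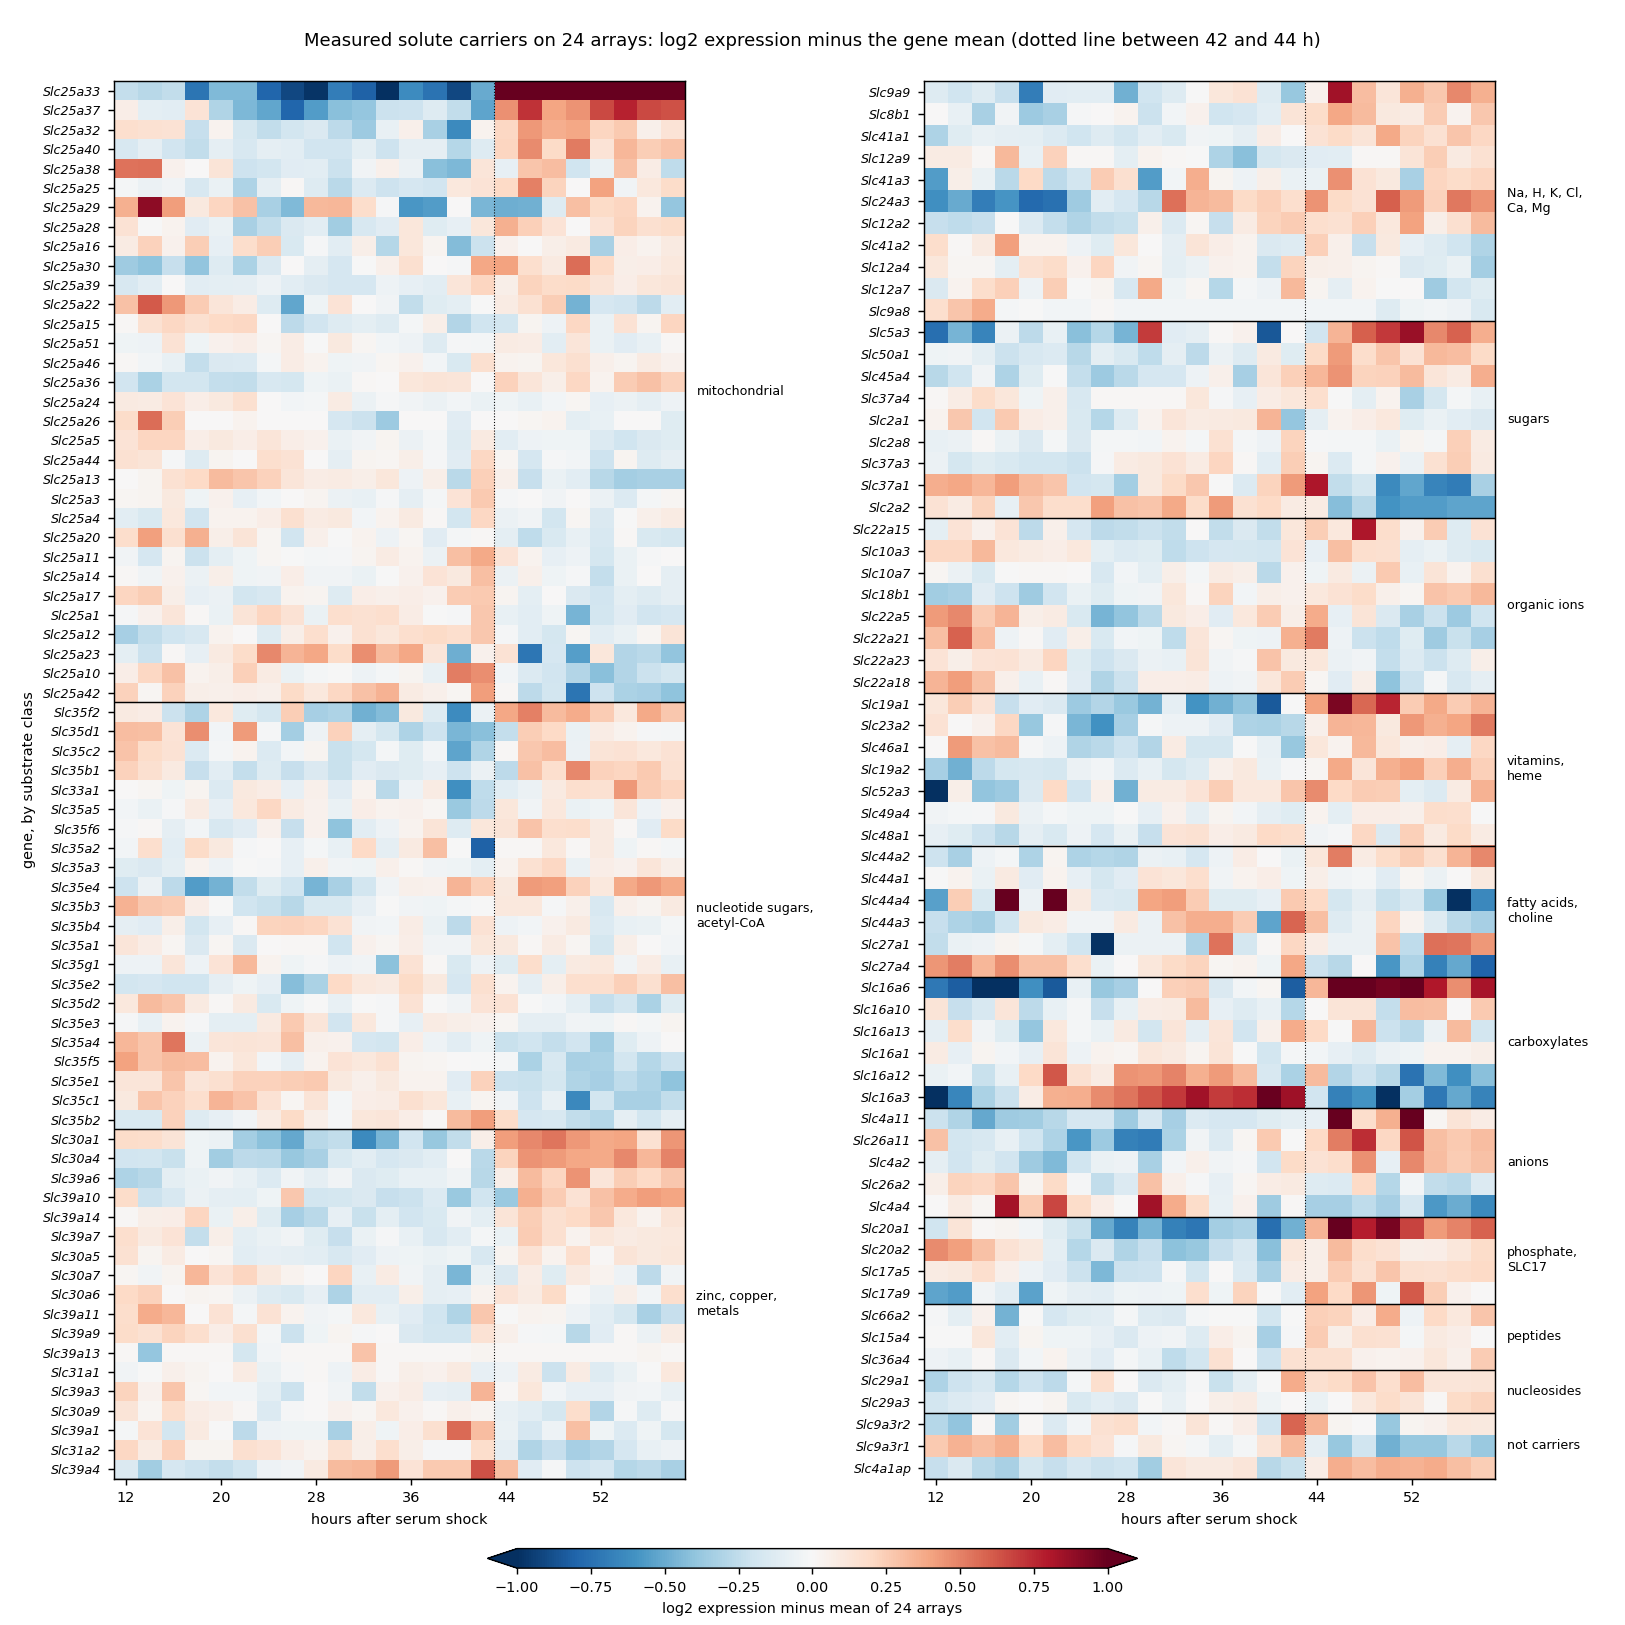
Each row is 1 of the 136 measured genes and each column 1 of the 24 arrays, from 12 to 58 h after serum shock, with color giving the log2 value minus the gene's mean (scale from -1 to 1). Rows are grouped by substrate class and sorted within a class by the change at 44 to 50 h against 36 to 42 h. Slc25a33, Slc20a1 and Slc16a6 turn to high values right of the dotted line between 42 and 44 h, and Slc16a3 turns to low values.

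The windows on either side of 42 h were compared first. In the window of 44 to 50 h against that of 36 to 42 h, 45 of the 136 genes were called, beside 33.3% of all measured genes. Of these, 30 were higher (20.5% of all measured genes were called higher) and 15 were lower (12.7% of all). The balance of the directions depended on how the arrays were scaled: it was 20 higher and 19 lower after quantile normalization and 19 higher and 20 lower after centring each array on its median. By at least 1 log2 unit, 4 genes rose (1.48% of all measured genes did) and 1 fell (0.743% of all did). Of the 45 calls, 12 were lost with another scaling and 10 were lost or reversed with another probe set of the gene. The 5 largest were Slc25a33, Slc20a1, Slc16a6, Slc19a1 and Slc16a3, and each stayed past the threshold in every alternative run for that comparison. In a bulk RNA sample, a change in RNA per cell and a change in the mix of cells cannot be told apart.

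Some marker genes moved across the same border. The summed signal of the 9 hepatocyte markers (log2 of the sum) lay between 16.46 and 16.85 at 44 to 50 h, against 16.83 to 17.11 at 36 to 42 h, and Alb made up much of it. Of the 8 measured, 3 were called lower (Alb by 0.41, Ttr by 0.98 and Hnf4a by 0.39) and 2 were called higher (Ahsg by 1.04 and Rbp4 by 0.25), so the list did not move one way. The sum of the 4 bile duct markers was 15.53 to 15.74 at 44 to 50 h, against 15.69 to 16.06 at 36 to 42 h. Of these 4, 1 was called lower (12.7% of all measured genes were). The sum of the 6 macrophage markers was 14.68 to 14.93, against 14.68 to 15.13. Cd14 made up nearly all of it, and 0 of the 3 measured macrophage markers were called. The part of the marked cell types in the changes of the carriers was not tested.

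The window of 52 to 58 h against that of 28 to 34 h gave 55 called genes (36.3% of all measured genes were called). There were 37 higher (21.0% of all) and 18 lower (15.3% of all), and the split became 36 higher and 27 lower after quantile normalization and 35 higher and 26 lower after centring. By at least 1 log2 unit, 3 rose (1.62% of all measured genes did), namely Slc25a33, Slc20a1 and Slc25a37, and 1 fell (1.73% of all did), namely Slc16a3. This comparison shares no array with the one at 44 to 50 h. Of the 30 genes called higher at 44 to 50 h, 22 were also called higher at 52 to 58 h, which is 73.3% of the first list and 59.5% of the 37 of the second. Among all measured genes the same shares were 71.7% and 70.1%. Of the 15 called lower, 11 were called lower again (73.3% of the first list and 61.1% of the second), near the 71.2% and 59.2% of all measured genes.

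Mitochondrial carriers of the Slc25 family sit in the inner mitochondrial membrane and exchange nucleotides, phosphate, carboxylates, amino acids and cofactors between the cytosol and the matrix. Of 44 on the array, 32 were measured. At 44 to 50 h against 36 to 42 h, 4 were higher (20.5% of all measured genes were) and 5 lower (12.7%). The gene that moved most was Slc25a33, a carrier of pyrimidine nucleotides. It stood at 9.65, 10.11, 10.02 and 9.80 at 44, 46, 48 and 50 h, against 7.85, 7.74, 7.57 and 7.98 at 36, 38, 40 and 42 h. Every array of the later window lay above every array before it, with the largest step between 42 and 44 h and a smaller one up to 46 h. The change was 2.11 ± 0.14 on the log2 scale (4.32-fold, adjusted p = 1.67e-10). At 52 to 58 h its values were 9.74, 9.69, 9.71 and 9.78, against 7.50, 7.79, 7.68 and 7.16 at 28 to 34 h, a change of 2.20 ± 0.14 (adjusted p = 7.5e-11). Slc25a36, the other pyrimidine nucleotide carrier of the family, changed by 0.06 ± 0.05 at 44 to 50 h and was not called there. It rose by 0.22 at 52 to 58 h against 28 to 34 h and by 0.31 at 36 to 42 h against 12 to 18 h, both calls being lost with another probe set of the gene.

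The promoter of Slc25a33, the gene with the largest rise, is shown with that of Slc20a1, which rose next most, because both carry the hexamer CACGTG, the E-box read by clock and Myc family proteins. The letters were taken from RefSeq (build GRCm38.p6), cover the 250 bases before the annotated start, run 5′ to 3′ on the strand of the gene, and have CACGTG in capitals. The Slc25a33 stretch lies at chr4:149774268-149774517 on the minus strand and that of Slc20a1 at chr2:129198523-129198772 on the plus strand.
Slc25a33: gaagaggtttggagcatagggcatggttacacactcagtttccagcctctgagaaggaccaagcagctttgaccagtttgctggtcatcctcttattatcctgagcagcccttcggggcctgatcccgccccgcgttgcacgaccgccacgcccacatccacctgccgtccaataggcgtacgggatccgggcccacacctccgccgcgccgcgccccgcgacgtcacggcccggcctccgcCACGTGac
Slc20a1: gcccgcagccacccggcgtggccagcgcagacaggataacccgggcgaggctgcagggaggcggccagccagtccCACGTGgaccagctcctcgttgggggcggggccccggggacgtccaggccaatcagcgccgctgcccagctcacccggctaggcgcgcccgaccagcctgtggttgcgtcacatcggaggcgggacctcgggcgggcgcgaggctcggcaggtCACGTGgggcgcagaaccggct
The hexamer ends 2 bases before the start of Slc25a33 and 169 and 16 bases before that of Slc20a1. A second annotated start of Slc20a1, at chr2:129206846-129207095, has no CACGTG in its 250 bases.

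CACGTG reads the same on both strands. It occurs in the 250 bases before at least 1 start of 6.86% of the 27025 genes in the RefSeq table, and of 10.4% of the measured genes that have an entry there. Among the 109 measured carriers with an entry, 20 have it. They comprise 3 of the 20 called higher at 44 to 50 h, 1 of the 14 called lower and 16 of the 75 not called. The motif was picked after the sequences had been read, and a match describes these letters alone.

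Mitochondrial carriers of iron and glutathione also rose. Slc25a37 (mitoferrin-1), which imports iron for heme and iron-sulfur cluster synthesis, had 10.32, 10.58, 10.26 and 10.31 at 44 to 50 h, against 9.65, 9.73, 9.62 and 9.34 at 36 to 42 h. The windows did not overlap, and the change was 0.78 ± 0.10 (adjusted p = 5.56e-06). It was 1.07 ± 0.10 at 52 to 58 h against 28 to 34 h (adjusted p = 4.09e-08). The related Slc25a28 (mitoferrin-2) was called in the later comparison, with a change of 0.36 ± 0.08 (adjusted p = 0.002), and not at 44 to 50 h (0.18 ± 0.08). Slc25a40, a glutathione importer, rose by 0.50 ± 0.08 at 44 to 50 h (adjusted p = 4.24e-05) and by 0.42 ± 0.08 at 52 to 58 h. Its close relative Slc25a39 averaged 14.10, changed by 0.13 at 44 to 50 h without being called, and rose by 0.24 at 52 to 58 h. Slc25a32, which imports folate and flavin cofactors, rose by 0.57 ± 0.12 at 44 to 50 h (adjusted p = 0.0014).

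Other mitochondrial carriers fell. Slc25a42, the coenzyme A carrier, had 8.99, 8.72, 8.79 and 8.24 at 44 to 50 h, against 9.06, 9.03, 8.998 and 9.39 at 36 to 42 h, so that the 44 h array lay only just below the earlier window. Its change was -0.43 ± 0.11 (adjusted p = 0.00621), and -0.55 ± 0.11 at 52 to 58 h against 28 to 34 h (adjusted p = 0.000719). Slc25a10, the dicarboxylate carrier, fell by 0.39 at 44 to 50 h (adjusted p = 0.00626), and its arrays at 40 and 42 h (10.89 and 10.85) were the highest of its course. Slc25a1, which exports citrate for fatty acid synthesis, fell by 0.25 at 44 to 50 h, a call lost in 4 of 14 alternatives (adjusted p 0.00428 to 0.13), and by 0.27 at 52 to 58 h, where the call held in all alternatives run. The aspartate and glutamate carrier Slc25a13 (citrin) was called only in the later comparison, with a change of -0.40 ± 0.08 (adjusted p = 0.000639). Slc25a12, the second carrier of that kind, fell by 0.27 at 44 to 50 h with the probe set used, whereas its other probe set gave 0.055 (adjusted p = 0.66, range over the alternatives 0.000405 to 0.66).

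Carriers that supply the matrix with ADP and phosphate were also measured. The ADP/ATP exchangers Slc25a4 and Slc25a5 ranged from 13.88 to 14.27 and from 13.68 to 14.10 over the 24 arrays, and the phosphate carrier Slc25a3 from 13.37 to 13.77. At 44 to 50 h they changed by -0.09, -0.03 and -0.08, and none of the 3 was called there. Slc25a5 was called lower by 0.19 at 36 to 42 h against 12 to 18 h and by 0.14 at 52 to 58 h against 28 to 34 h, both calls being lost with other probe sets of the gene. The ATP-Mg and phosphate carriers Slc25a23 and Slc25a25 had wider ranges, 7.06 to 8.27 and 7.88 to 8.70. At 52 to 58 h against 28 to 34 h, Slc25a23 fell by 0.55 (adjusted p = 0.0151) and Slc25a25 rose by 0.35 (adjusted p = 0.0132), each call being lost in 2 of 15 alternatives. Slc25a20, which imports acylcarnitines for fatty acid oxidation, changed by -0.12 at 44 to 50 h and was not called there, and it fell by 0.30 at 36 to 42 h against 12 to 18 h. Of the mitochondrial channel and import genes taken as partners (voltage-dependent channels, the calcium uniporter, Letm1, Timm23 and sideroflexins), 8 were measured, with 2 higher and 2 lower at 44 to 50 h. Of all measured genes, 20.5% were called higher there and 12.7% lower.

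The Slc16 family carries lactate, pyruvate and related molecules, and held both the largest fall at 44 to 50 h and the third largest rise there of the 136 genes. Of its class of carboxylate carriers, 6 of 20 on the array were measured. Slc16a3 (MCT4), the lactate exporter of cells with high glycolysis, climbed through the first 4 windows. Its window means were 9.20, 10.10, 10.46, 10.60, 9.12 and 9.23, in order of time. At 44, 46, 48 and 50 h it had 9.59, 9.11, 9.19 and 8.60, against 10.49, 10.52, 10.77 and 10.63 at 36 to 42 h. The windows did not overlap, the 44 h array coming nearest to the earlier one, and the change was -1.48 ± 0.18 (0.358-fold, adjusted p = 1.62e-06). The change at 52 to 58 h against 28 to 34 h was -1.23 ± 0.18 (adjusted p = 1.23e-05).

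**Figure D2:**
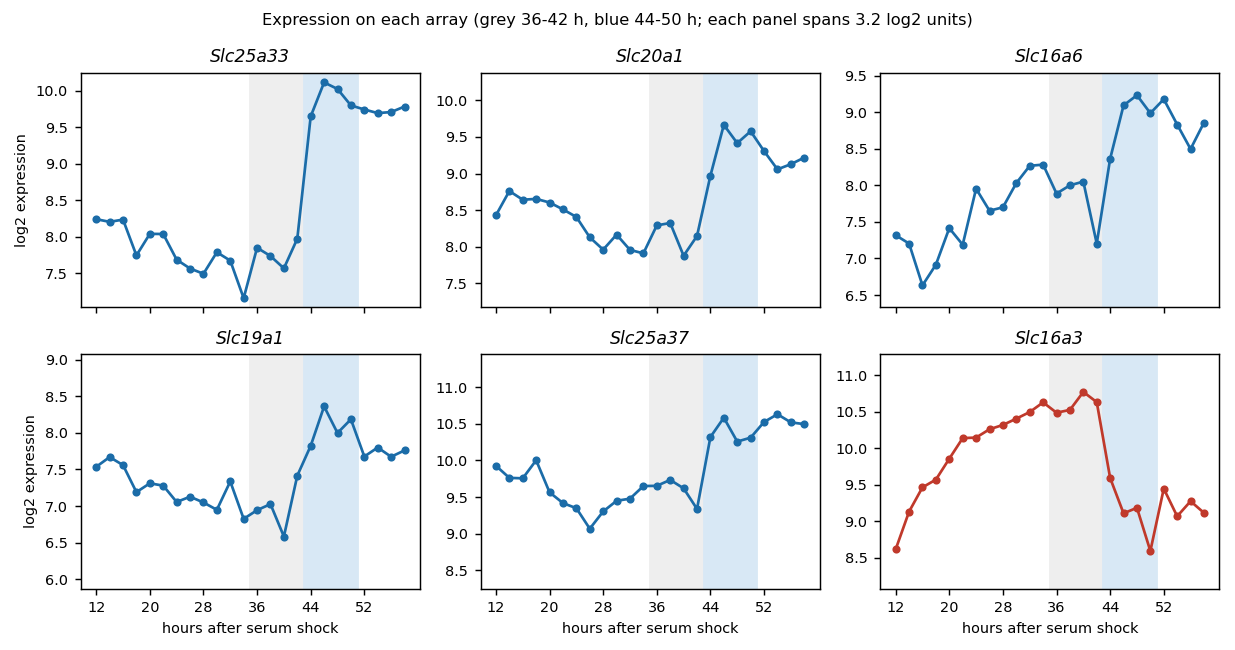
Each panel plots the log2 expression of 1 carrier on the 24 arrays against hours after serum shock, with 36 to 42 h shaded grey, 44 to 50 h shaded blue and the same span of 3.2 log2 units on every vertical axis. Slc25a33, Slc20a1, Slc16a6, Slc19a1 and Slc25a37 stand higher at 44 to 50 h than at 36 to 42 h with no overlap, and Slc16a3 (red) stands lower after a climb that lasted to 40 h.

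The promoter of Slc16a3 is shown because it belongs to the largest fall and carries the pentamer ACGTG, the core of the element read by hypoxia-inducible factors, which is in capitals. It lies at chr11:120948817-120949066 on the plus strand of GRCm38.p6 and comes from RefSeq.
Slc16a3: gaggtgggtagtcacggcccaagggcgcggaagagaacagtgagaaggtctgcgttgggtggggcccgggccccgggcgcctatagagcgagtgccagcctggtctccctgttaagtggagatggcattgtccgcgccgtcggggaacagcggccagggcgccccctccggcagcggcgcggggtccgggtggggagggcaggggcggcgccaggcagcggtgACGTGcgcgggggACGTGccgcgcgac
The 2 matches end 22 and 9 bases before the start. ACGTG, sought on both strands, occurs before a start of 18.5% of all genes in the table and of 26.2% of the measured genes, and every CACGTG contains it. It occurs in 3 of the 20 carriers called higher at 44 to 50 h that have an entry, in 5 of the 14 called lower and in 23 of the 75 not called. The stretches of Slc25a33 and Slc20a1 shown above, which rose most, hold it too. A match describes these letters alone, and a part of hypoxia-inducible factors was not tested.

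Partners of Slc16a3 were read beside it. Of 8 partners of lactate and pyruvate handling on the array, 5 were measured. At 44 to 50 h, 3 of these were called lower, beside 12.7% of all measured genes. Bsg, the basigin chaperone that takes Slc16a1 and Slc16a3 to the cell surface, had 14.55, 14.07, 13.97 and 13.94 at 44 to 50 h, against 14.65, 14.68, 15.02 and 14.81 at 36 to 42 h (change -0.66, adjusted p = 2.93e-05). Ldha, which makes lactate from pyruvate, fell by 0.65 (adjusted p = 8.99e-07), and Pdk1, which holds back pyruvate dehydrogenase, fell by 0.78 (adjusted p = 0.000155). Mpc1, a subunit of the mitochondrial pyruvate carrier, and Pdha1, a subunit of pyruvate dehydrogenase, changed by 0.14 and -0.01 and were not called there.

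Slc16a1 (MCT1), the widely expressed lactate carrier, did not share this course. It ranged from 14.20 to 14.51 over the 24 arrays with a median of 14.40, and its change at 44 to 50 h was -0.06 ± 0.06 (adjusted p = 0.469). Slc16a6 (MCT7), known in zebrafish liver as an exporter of ketone bodies, rose. It had 8.36, 9.09, 9.23 and 8.99 at 44 to 50 h, against 7.89, 8.0, 8.05 and 7.20 at 36 to 42 h, which gave 1.13 ± 0.21 (2.19-fold, adjusted p = 0.000379). At 52 to 58 h it was 0.77 ± 0.21 higher than at 28 to 34 h (adjusted p = 0.00774). Slc16a12, a creatine carrier, did not pass at 44 to 50 h (-0.18 ± 0.15) but fell at 52 to 58 h, with 8.74, 9.03, 8.86 and 9.06 there, against 9.92, 9.91, 9.97 and 9.83 at 28 to 34 h (change -0.98 ± 0.15, adjusted p = 2.43e-05).

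Phosphate enters cells through the sodium-coupled carriers Slc20a1 (PiT-1) and Slc20a2 (PiT-2), and both rose. Slc20a1 had 8.97, 9.67, 9.42 and 9.58 at 44 to 50 h, against 8.29, 8.32, 7.88 and 8.15 at 36 to 42 h. No array of the later window reached down to the earlier one, and the change was 1.25 ± 0.13 (2.37-fold, adjusted p = 2.24e-07). It was 1.18 ± 0.13 at 52 to 58 h against 28 to 34 h (adjusted p = 3.77e-07). Slc20a2 changed less, by 0.35 ± 0.10 (adjusted p = 0.00838), and its 42 h array (9.93) lay within the range of the later window, 9.88 to 10.13. The call was lost with its other probe set (adjusted p = 0.0904, range over the alternatives 0.000938 to 0.0904), whereas the rise of 0.44 ± 0.10 at 52 to 58 h held in all alternatives run. Slc17a5 (sialin), which exports sialic acid from lysosomes, rose by 0.28 at 44 to 50 h and by 0.33 at 52 to 58 h. The phosphate exporter Xpr1, a partner outside the family, changed by 0.06 and was not called.

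Of 7 measured carriers of vitamins and heme, 3 were called higher at 44 to 50 h against 36 to 42 h, and 3 at 52 to 58 h against 28 to 34 h. Among all measured genes 20.5% and 21.0% were called higher in these comparisons. After quantile normalization or centring, 2 of 7 were called higher at 44 to 50 h. Slc19a1, the reduced folate carrier, had 7.82, 8.36, 8.0 and 8.19 at 44 to 50 h, against 6.94, 7.03, 6.58 and 7.41 at 36 to 42 h. Its windows did not overlap, and it rose by 1.10 ± 0.15 (2.14-fold, adjusted p = 7.51e-06). Slc46a1, the proton-coupled folate carrier, rose by 0.31 in the deposited values and was not called under either other scaling. Slc23a2, a vitamin C carrier, rose by 0.46 ± 0.11 (adjusted p = 0.00221), and its other probe set gave a similar change without passing (adjusted p = 0.176, range over the alternatives 0.00145 to 0.176). Slc19a2, the thiamine carrier, rose by 0.44 at 52 to 58 h.

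Zinc is moved out of the cytosol by the ZnT carriers (Slc30) and into it by the ZIP carriers (Slc39), and metallothioneins bind what is held there. Of 27 metal carriers on the array 18 were measured. At 44 to 50 h, 6 were higher (20.5% of all measured genes were) and 2 lower (12.7%). Under either other scaling there were 4 higher and 3 lower. Among the 18 were 6 ZnT genes, of which 3 were higher (2 under either other scaling). Slc30a4, which loads zinc into vesicles, had 11.66, 11.89, 11.87 and 11.83 at 44 to 50 h, against 11.29, 11.33, 11.44 and 11.17 at 36 to 42 h. Its later arrays all lay above the earlier ones, and it rose by 0.50 ± 0.07 (adjusted p = 5.93e-06) and by 0.61 ± 0.07 at 52 to 58 h against 28 to 34 h (adjusted p = 2.51e-07).

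The plasma membrane exporter Slc30a1, a target of the zinc sensor Mtf1, had 8.09, 8.15, 8.20 and 8.10 at 44 to 50 h, against 7.48, 7.29, 7.42 and 7.73 at 36 to 42 h. This gave 0.66 ± 0.11 with no overlap (adjusted p = 8.72e-05), but a second probe set of the gene gave 0.20 (adjusted p = 0.306, range over the alternatives 3.54e-05 to 0.306). Metallothionein Mt1, also an Mtf1 target, moved the other way, with 11.20, 10.85, 10.79 and 10.69 at 44 to 50 h, against 11.76, 11.53, 12.06 and 11.84 at 36 to 42 h (change -0.91, adjusted p = 1.47e-05). Mt2 changed by -0.17 and was not called there. At 52 to 58 h it had 10.19, 10.77, 10.96 and 11.19, against 10.57, 10.19, 9.65 and 10.05 at 28 to 34 h. Of the 7 measured metal partners, which also include the copper pumps and ceruloplasmin, 3 were lower at 44 to 50 h. Among all measured genes 12.7% were called lower there. At 52 to 58 h against 28 to 34 h, 2 of the 7 were called higher (21.0% of all) and 3 lower (15.3%).

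The 10 measured ZIP genes split, with 3 higher and 1 lower at 44 to 50 h and 2 of each under either other scaling. The importer Slc39a6 rose by 0.37 ± 0.07 (adjusted p = 0.000533). Slc39a10 rose by 0.56 ± 0.12 at 52 to 58 h against 28 to 34 h (adjusted p = 0.000725), while its call at 44 to 50 h (0.33 ± 0.12) was lost under both other scalings and its 44 h array stood at 9.97. Slc39a4, an importer of the plasma membrane that zinc itself holds down, ran opposite to these. It had 12.11, 11.99, 12.01 and 11.95 at 52 to 58 h, against 12.37, 12.59, 12.61 and 12.70 at 28 to 34 h, a change of -0.55 ± 0.10 without overlap (adjusted p = 0.000201). Slc39a14, which also imports iron and manganese, rose by 0.30 at 44 to 50 h with the probe set used and changed by 0.20 with another (adjusted p = 0.284, range over the alternatives 0.00375 to 0.284). The copper importer Slc31a1 changed by -0.05 and was not called, and its relative Slc31a2 fell by 0.29.

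**Figure D3:**
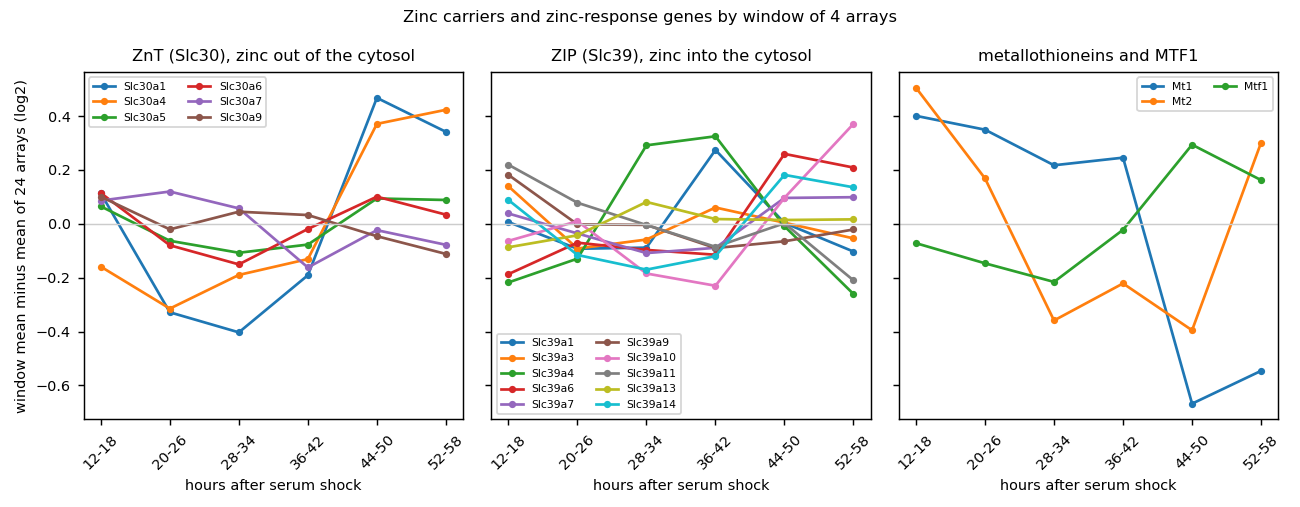
Lines give the mean of each window of 4 arrays minus the gene's mean over 24 arrays, in log2 units, for the 6 measured ZnT carriers (left), the 10 measured ZIP carriers (middle) and Mt1, Mt2 and Mtf1 (right). Slc30a1 and Slc30a4 stand above their means in the last 2 windows, and Slc30a1 also does so, by less, at 12 to 18 h. Slc39a4 peaks at 28 to 42 h, and Mt1 falls after 42 h. Mt2 stands higher at 52 to 58 h than at 28 to 50 h.

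Of 26 sugar carriers on the array 9 were measured. At 44 to 50 h, 2 were higher (20.5% of all measured genes were) and 1 lower (12.7%). There were 1 higher and 2 lower after quantile normalization, and 1 higher and 3 lower after centring. Slc2a1 (GLUT1), the widely expressed glucose carrier, ranged from 12.09 to 12.81 over the 24 arrays, with a median of 12.51, and changed by -0.01 ± 0.12 at 44 to 50 h (adjusted p = 0.969). Slc2a2 (GLUT2), the low-affinity carrier of hepatocytes, had 7.91, 7.41, 7.56 and 7.24 at 44 to 50 h, against 8.26, 7.98, 8.03 and 7.91 at 36 to 42 h. The 44 h array still lay at the lower end of the earlier window, and the change was -0.52 ± 0.11 (adjusted p = 0.00106). By 52 to 58 h the arrays read 7.28, 7.27, 7.30 and 7.31, against 8.12, 8.11, 8.22 and 8.02 at 28 to 34 h, a change of -0.83 ± 0.11 (adjusted p = 4.88e-06). The difference between the changes of both carriers was not tested. Slc50a1, a sugar carrier of the SWEET type, rose by 0.32 at 44 to 50 h and by 0.44 at 52 to 58 h. The inositol carrier Slc5a3 changed by 0.56 ± 0.23 at 44 to 50 h and did not pass (adjusted p = 0.0651), and the endoplasmic reticulum glucose-6-phosphate carrier Slc37a4 changed by 0.00. Among 4 measured partners of glucose handling, the hexokinase Hk2 rose by 0.57 and the phosphatase subunit G6pc3 by 0.29, while Hk1 and Khk were not called there.

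Nucleotide sugar carriers of the Slc35 family supply the Golgi and the endoplasmic reticulum with building blocks of glycans. With the acetyl-CoA carrier Slc33a1 they made up 22 measured genes of 27 on the array. At 44 to 50 h, 4 were higher (20.5% of all measured genes were) and 4 lower (12.7%). After quantile normalization there were 2 higher and 4 lower, and after centring 2 higher and 5 lower. Slc35f2 rose most, by 0.58 ± 0.13 (adjusted p = 0.00178), with 7.38, 7.50, 7.31 and 7.36 at 44 to 50 h, against 7.09, 6.87, 6.36 and 6.93 at 36 to 42 h. Slc35b1, which supplies the endoplasmic reticulum with ATP, rose by 0.37 at 52 to 58 h. Slc35c1, the GDP-fucose carrier, fell by 0.33 at 52 to 58 h, while its fall of 0.30 at 44 to 50 h was lost in 5 of 14 alternatives. Slc35b2, a carrier of the sulfate donor PAPS, fell by 0.30 at 44 to 50 h, a call lost in 8 of 15 alternatives (adjusted p 0.00447 to 0.21). Slc35e1 had 8.94, 9.02, 8.97 and 8.87 at 52 to 58 h, against 9.53, 9.37, 9.32 and 9.37 at 28 to 34 h (change -0.45, adjusted p = 2.49e-05). The carriers of CMP-sialic acid (Slc35a1), UDP-galactose (Slc35a2) and UDP-N-acetylglucosamine (Slc35a3) changed by 0.03, 0.14 and 0.12 and were not called.

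**Figure D4:**
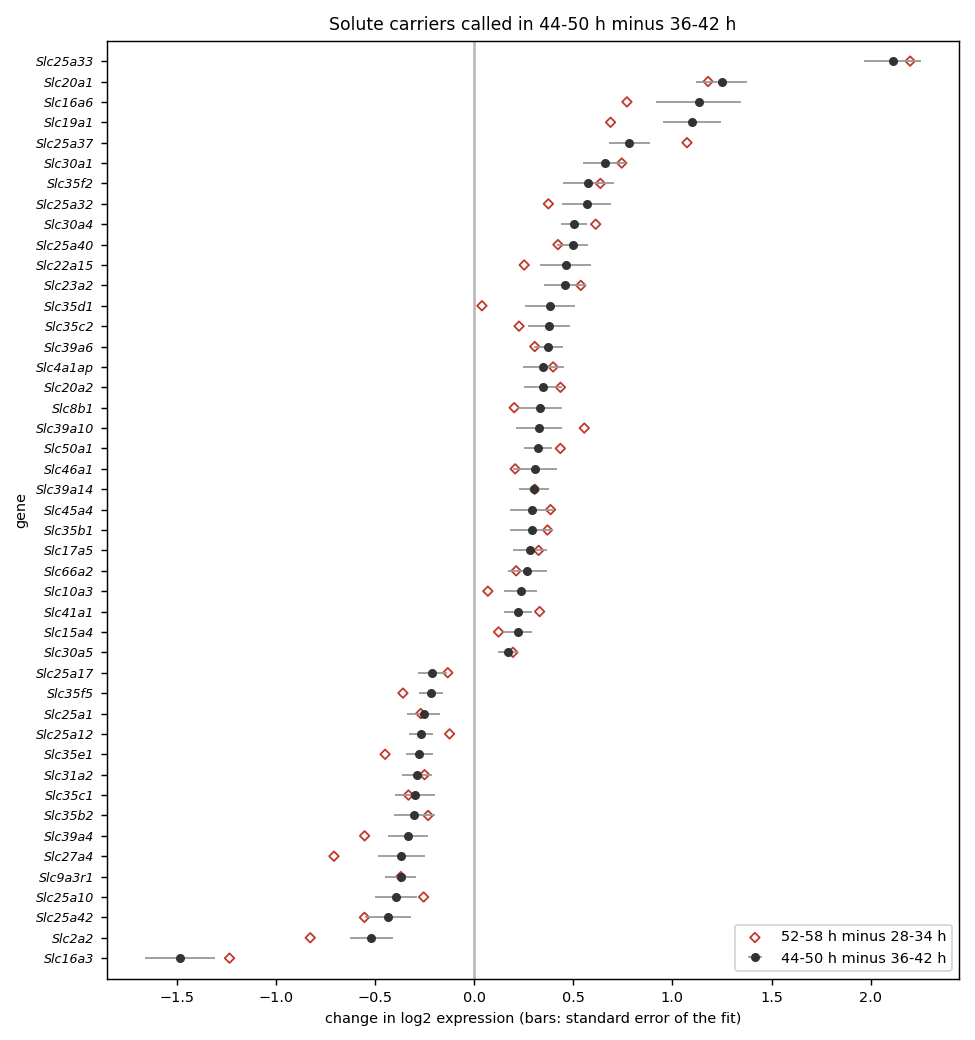
Black points give the change in log2 expression at 44 to 50 h minus 36 to 42 h, with the standard error of the fit, for the 45 carriers called there (gene names on the vertical axis), and open red diamonds give the same genes at 52 to 58 h minus 28 to 34 h. Slc25a33 stands at 2.11 and 2.20, Slc16a3 at -1.48 and -1.23.

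Of 28 carrier genes for sodium, protons, potassium, chloride, calcium and magnesium, 11 were measured. At 44 to 50 h, 2 were called higher (20.5% of all measured genes were) and 0 lower (12.7%). These were Slc8b1 (mitochondrial sodium and calcium exchange) and Slc41a1 (magnesium), and neither was called under the other scalings. The sodium, potassium and chloride carrier Slc12a2 (NKCC1), which sets cell volume, had 14.45, 14.10, 14.20 and 14.35 at 52 to 58 h, against 13.82, 14.09, 13.90 and 14.06 at 28 to 34 h. The windows touched without overlap, and the change was 0.31 ± 0.09 (adjusted p = 0.0114). Among 6 measured ion pumps, Atp2a2 and Atp2b1, calcium pumps of the endoplasmic reticulum and the plasma membrane, rose by 0.41 and 0.43 at 44 to 50 h, and Atp6v0d1 fell by 0.29.

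Of 20 carriers of bicarbonate, sulfate and other anions, 5 were measured. At 52 to 58 h against 28 to 34 h, 2 rose (21.0% of all measured genes did) and 1 fell (15.3% did). Slc4a4 (NBCe1), which imports sodium with bicarbonate, had 10.57, 10.16, 10.24 and 10.10 at 52 to 58 h, against 10.73, 11.58, 11.10 and 10.92 at 28 to 34 h, a change of -0.82 ± 0.17 (adjusted p = 0.000918). The chloride and bicarbonate exchanger Slc4a2 rose by 0.42 in the same comparison (adjusted p = 0.00271). Slc26a11, a sulfate carrier, rose by 0.81 ± 0.15 (adjusted p = 0.000289), with 7.54, 7.21, 7.17 and 7.22 at 52 to 58 h, against 6.24, 6.21, 6.59 and 6.88 at 28 to 34 h. Slc26a2, the sulfate carrier of cartilage, averaged 12.14 and was not called.

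Fatty acid and choline carriers gave a single fall at 44 to 50 h among 6 measured genes. Slc27a4 (FATP4), an acyl-CoA synthetase that takes up fatty acids, had 8.61, 8.25, 8.41 and 8.13 at 52 to 58 h, against 8.93, 9.04, 9.12 and 9.14 at 28 to 34 h. The change there was -0.71 ± 0.12 without overlap (adjusted p = 8.68e-05). Its smaller change of -0.37 at 44 to 50 h was a call lost in 4 of 14 alternatives. That of -0.34 at 36 to 42 h against 12 to 18 h was lost in 9 of 15. The choline carrier Slc44a1 ranged from 13.29 to 13.64 and was not called, and Slc44a2 rose by 0.46 at 52 to 58 h. Slc44a4 fell by 0.88 there (adjusted p = 0.0452), with 4.70, 4.48, 3.40 and 4.21 at 52 to 58 h, against 4.70, 5.25, 5.27 and 5.11 at 28 to 34 h, all near the floor of the filter. The call was lost in several alternatives, among them the one without the 56 h array (change -0.62, adjusted p = 0.18, range over the alternatives 0.0222 to 0.18). The nucleoside carrier Slc29a1 (ENT1) averaged 12.23 and changed by 0.19 at 44 to 50 h without being called.

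Between 12 to 18 h and 36 to 42 h the same hours of the cycle were compared 24 h apart, before the step at 42 h. Here 44 genes were called, beside 26.5% of all measured genes, with 17 higher (14.3% of all) and 27 lower (12.1% of all). Against the comparison of 52 to 58 h with 28 to 34 h, which shares no array with it, 6 of the 17 were called higher again (35.3% of the 17 and 16.2% of the 37), and 4 of the 27 lower again (14.8% of the 27 and 22.2% of the 18). Among all measured genes the shares were 20.1% and 13.7% for higher and 18.9% and 15% for lower. A rise of at least 1 log2 unit was seen for 1 carrier, Slc16a3 (2.67% of all measured genes rose so). Slc16a3 had 10.49, 10.52, 10.77 and 10.63 at 36 to 42 h, against 8.62, 9.13, 9.47 and 9.57 at 12 to 18 h (change 1.41 ± 0.18, adjusted p = 4.09e-06). Its chaperone Bsg rose by 0.50. Of the 5 measured partners of lactate and pyruvate handling, 1 was called higher and 1 lower (14.3% and 12.1% of all measured genes). Slc24a3, which exchanges sodium for calcium and potassium, had 7.48, 7.35, 7.40 and 7.33 at 36 to 42 h, against 6.54, 6.66, 6.47 and 6.57 at 12 to 18 h. Its rise of 0.83 ± 0.16 (adjusted p = 0.000567) came about between 22 and 32 h, and no array from 32 h on lay below 7.31. Slc39a4 rose by 0.54 ± 0.10 (adjusted p = 0.000398) and Slc25a30, a mitochondrial carrier, by 0.48. Slc16a6 rose by 0.77 ± 0.21, although its 42 h array (7.20) overlapped the earlier window.

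The riboflavin carrier Slc52a3 rose by 0.64 ± 0.18 (adjusted p = 0.0113), with a 12 h array (6.11) well below the others. Without that array the change was 0.42 and was not called (adjusted p = 0.0574, range over the alternatives 0.00203 to 0.108). Slc25a12 rose by 0.43 with the probe set used and changed by -0.16 with the other (adjusted p = 0.176, range over the alternatives 1.33e-05 to 0.176).

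Among the falls of that comparison, Slc35d1, which carries UDP-glucuronic acid into the endoplasmic reticulum, had 8.97, 9.07, 8.82 and 8.86 at 36 to 42 h, against 9.58, 9.58, 9.41 and 9.74 at 12 to 18 h. It fell by 0.65 ± 0.13 without overlap (adjusted p = 0.000655). Slc25a29, a carrier of basic amino acids, fell by 0.84 ± 0.21 (adjusted p = 0.00431) with the probe set used, but other probe sets of the gene did not pass (adjusted p up to 0.456, range over the alternatives 0.00214 to 0.456). Both phosphate carriers fell, Slc20a1 by 0.46 ± 0.13 (adjusted p = 0.012) and Slc20a2 by 0.51 ± 0.10 (adjusted p = 0.000498). With the arrays 24 h apart as a block neither was called (adjusted p = 0.0681 and 0.0557, ranges over the alternatives 0.00772 to 0.0681 and 6.45e-05 to 0.0557). The mitochondrial glutamate carrier Slc25a22 fell by 0.52, a call that held in all alternatives run. The glycine carrier Slc25a38 fell by 0.49, a call lost in 7 of 14 alternatives (adjusted p 0.00836 to 0.15). Of the folate carriers, Slc46a1 fell by 0.42, a call lost in 2 of 15 alternatives (adjusted p 0.00352 to 0.0968). Slc19a1 fell by 0.50 and was not called with its other probe set (adjusted p = 0.844, range over the alternatives 0.00259 to 0.844). Of the vitamin and heme class, 3 of 7 measured genes were higher and 3 lower, beside 14.3% and 12.1% of all measured genes.

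Organic ion carriers of the Slc10, Slc18 and Slc22 families take up bile acids, drugs, carnitine and other charged molecules in the liver, and 8 of the 33 on the array were measured. At 44 to 50 h, 2 were called higher, of which 1 stayed under either other scaling. Slc22a15 had 8.0, 7.85, 8.56 and 7.93 at 44 to 50 h, against 7.51, 7.61, 7.51 and 7.87 at 36 to 42 h. The 48 h array stood above the others and the windows overlapped at 7.85 to 7.87, with a change of 0.46 ± 0.13 (adjusted p = 0.00862). Slc10a3, a relative of the bile acid carriers, rose by 0.23 at 44 to 50 h. That call was lost in 10 of 14 alternatives, both other scalings among them (adjusted p 0.00459 to 0.181). Slc10a3 fell by 0.31 at 36 to 42 h against 12 to 18 h, a call lost in 2 of 15 alternatives.

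A 24 h rhythm was called for 3 of the 136 carriers, beside 2.77% of all measured genes. At an unadjusted p under 0.05 there were 21 (20.6% of all measured genes). Slc22a5 (OCTN2), which imports carnitine for fatty acid oxidation, ranged from 8.26 at 26 h to 9.20 at 14 h with a median of 8.78. Its fitted amplitude was 0.27 ± 0.05 and its fitted curve first peaked at 16.2 h (adjusted p = 0.0186). Another probe set of the gene gave 0.03 (adjusted p = 0.932, range over the alternatives 0.00278 to 0.932). Slc22a23, an orphan relative, lay between 10.76 and 11.29 with a median of 10.98, and had an amplitude of 0.15 ± 0.03 and a first peak at 16.2 h too (adjusted p = 0.0205). Slc35f5 had the smallest of the amplitudes, 0.11 ± 0.02 (adjusted p = 0.0405, range over the alternatives 0.0175 to 0.101). Its call was lost in 17 of 33 alternatives, and that of Slc22a23 in 3 of 33. The last 2 windows of Slc35f5 were its lowest, with a mean of 11.05 at 44 to 50 h, against 11.26 at 36 to 42 h. Without the array at 26 h, 0 of the 136 carriers were called rhythmic by limma, and 21 had an unadjusted p under 0.05.

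**Figure D5:**
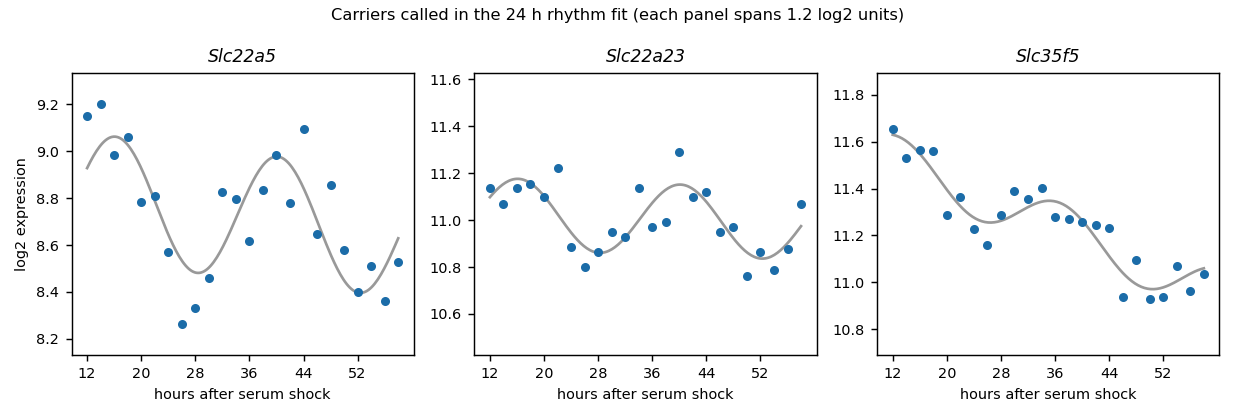
Points give the log2 expression of Slc22a5, Slc22a23 and Slc35f5 on the 24 arrays against hours after serum shock, and lines the least-squares curve of a 24 h cosine with a linear term. Slc22a5 and Slc22a23 are high near 16 and 40 h, and Slc35f5 falls over the course with a shallow wave.

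The scaffold proteins Slc9a3r1 and Slc9a3r2 (NHERF1 and NHERF2) and the nuclear protein Slc4a1ap share the name pattern but carry no solute. They are counted among the 136 genes. Slc9a3r1 averaged 12.28 and fell by 0.37 at 44 to 50 h (adjusted p = 0.000933) and again by 0.37 at 52 to 58 h. The peptide and lysosomal carriers Slc15a4 and Slc66a2 rose by 0.22 and 0.27 at 44 to 50 h, among 3 measured genes of their class. In that class 1 gene was called after quantile normalization, and neither of the pair was called after centring. The call of Slc15a4 was lost in 4 of 14 alternatives and that of Slc66a2 in 11 of 15.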

How the data were processed

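RNA of 24 samples of MMH-D3 cells was measured on 1 Affymetrix array each. The values are the authors' own, on a log2 scale as judged from their range, and were deposited after GCRMA processing, per the submitters' processing notes. That method models background from probe sequence, brings all arrays to one distribution and reduces each probe set to one value. Its version and settings are not given in the sources used here. A floor of 2.17 held 41.1% of the values, those of the 64 control probe sets included, and values there are upper bounds.

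Of the probe sets other than controls, 34945 had 1 gene symbol in GEO's platform annotation, 932 had several and 9160 had none. Probe sets with several symbols named no gene. All members matched a RefSeq gene by Entrez ID. A probe set was kept if 6 or more arrays read 5 or higher, which left 18526.

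Both models were fitted with limma 3.58.1 in R 4.3.3 (variance prior following mean intensity), with Benjamini-Hochberg adjustment over the kept probe sets at a threshold of 0.05. One tested the cosine and sine terms of a 24 h period jointly, beside a linear term. The other held 6 windows of 4 arrays, with 18 residual degrees of freedom. Errors of changes are standard errors of the fit. The arrays of a window are different hours and not replicates, so their spread also holds any change within the window and may be technical in part. Windows 24 h apart hold the same hours of a daily cycle. The number of arrays limits the precision. Both tests were run on simulated data with independent noise and no drift. That run cannot show how the tests behave under drift or where neighbouring arrays are linked.

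The members, the gene lists, the windows and the tests were chosen with earlier results of these data known. The genes named were the 12 largest called rises and falls of each comparison, the rhythmic genes, the 12 of highest mean, the brightest and the most changed of each substrate class, and a list of well-known carriers. Other genes named are partners from lists of the same kind. Alternatives were quantile normalization, centring of each array on its median, no filter, a mean of at least 7, 1 variance prior, other probe sets, other drift terms, other sets of arrays and each array left out in turn. Figures were drawn with matplotlib 3.10.9 in Python 3.11.15.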

Additional observations from a re-analysis of the deposited data

How the results depend on the processing

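Of the 45 calls at 44 to 50 h against 36 to 42 h, 13 held in every alternative: Slc25a33, Slc20a1, Slc16a6, Slc19a1, Slc25a37, Slc35f2, Slc25a32, Slc30a4, Slc25a40, Slc39a6 and Slc50a1 were higher, and Slc16a3 and Slc2a2 lower. So did 39 of the 55 calls at 52 to 58 h against 28 to 34 h and 8 of the 44 at 36 to 42 h against 12 to 18 h. With only the 8 arrays of both windows in the fit, the calls numbered 17 at 44 to 50 h and 19 at 36 to 42 h, and with the arrays 24 h apart as pairs 11 at 36 to 42 h, where fewer arrays estimate the spread. The rhythmic carriers numbered 5 after quantile normalization, 5 with no linear term, 13 with a quadratic term, 15 without 12 to 18 h and 8 without 44 to 58 h, and the cause was not tested. Leaving out 1 array gave 0 (without 26 h, where 21 had an unadjusted p under 0.05) to 7 (without 38 h) rhythmic carriers, with 6 without 18 h and 1 without either 28 or 40 h. It gave 29 (without 14 h) to 43 calls at 36 to 42 h, 35 to 51 at 44 to 50 h and 50 to 56 at 52 to 58 h. Other probe sets reversed the direction of Slc25a12 (-0.16 at 36 to 42 h, 0.055 at 44 to 50 h), Slc35c2 (0.032 and -0.089) and Slc35e4 (-0.040 at 36 to 42 h), and the cause was not tested. The labels give no pairing, so the pairs of arrays 24 h apart rest on the hours alone. With 1 array per time point, a change seen on a single array has no repeat.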
